A study of Mus musculus with 6 samples.

Results

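The genes described here are 10 components of endoplasmic reticulum-associated degradation (ERAD): the derlins Derl1, Derl2 and Derl3, the EDEM genes Edem1, Edem2 and Edem3, and Sel1l, Syvn1, Herpud1 and Os9, which act at the HRD1 ubiquitin ligase complex. The members are all non-control array probes annotated to these symbols, 13 of the 39429 probes on the array and 10 of the 25762 genes and unnamed transcripts tested. The group was chosen by its known role but with the changes of this same comparison in view, in which Derl3 was among the lower genes, so the members' changes are given as a description. The cells were MIN6B1, derived from a mouse insulinoma and serving to model pancreatic beta cells, kept in DMEM Glutamax with fetal calf serum. The siGFP group, the study's control, received a small interfering RNA (siRNA) directed at green fluorescent protein, and the other group an siRNA against the circular RNA circHIPK3, whose host gene is Hipk3. No probe was matched to the circular form, so the knockdown itself was not checked here. Both groups received the RNAiMax transfection reagent, RNA was taken after 48 h, and each group holds 3 samples with 1 single-colour Agilent array each. Nothing in the labels says that replicates were separate cultures, and the spread behind each p-value may therefore be technical. With these few arrays, their number limits the precision.

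Secretory proteins that fail to fold in the endoplasmic reticulum (ER) are recognised, moved back to the cytosol, tagged with ubiquitin and destroyed by the proteasome. EDEM proteins trim mannose from the glycans of misfolded glycoproteins, the lectin OS9 reads the trimmed glycan, SEL1L passes the client to the ligase HRD1 (encoded by Syvn1), derlins help form the route through the membrane, and HERPUD1 helps assemble the complex. Many of these genes are induced by the unfolded protein response through the factors ATF6 and XBP1, and beta cells depend on the pathway because they make large amounts of proinsulin.

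The promoter sequences are shown first, as a description of where exact matches to known stress elements lie. The ER stress response element (ERSE), which is CCAAT and CCACG with 9 unspecified bases between them and is bound by ATF6 together with NF-Y, was searched on both strands of the RefSeq promoter windows of GRCm38.p6, which run from 250 bases before the annotated start to 50 bases after it. The related ERSE-II, which is ATTGG and CCACG with 1 unspecified base between them, and the unfolded protein response element UPRE, TGACGTGG, were searched in the same way. ERSE-II shares the CCACG end with ERSE, so the 2 can overlap there, and the other end is the reverse complement at a closer spacing. Of the 10 members, 9 had a window, and Derl1 had none. An ERSE was present in the windows of Derl3 and Syvn1, an ERSE-II in that of Herpud1, and a UPRE in none. Among all 27018 genes with a window, 0.137% held an ERSE, 0.0444% an ERSE-II and 0.714% a UPRE. The ends of the ERSE taken singly were common in the members. CCACG was present in all 9 windows and CCAAT in 8, against 35.5% and 41.1% of all genes. A member without a match thus lacks only the exact spacing or 1 of the ends. The 250 bases upstream of the start are printed for these 3 genes, and for Edem1, which had the second largest difference among the members but no match. They lie at chr10:75893148-75893397 (plus strand), chr19:6046326-6046575 (plus strand), chr8:94386179-94386428 (plus strand) and chr6:108828391-108828640 (plus strand). Capitals mark the fixed letters of an ERSE or ERSE-II.
Derl3: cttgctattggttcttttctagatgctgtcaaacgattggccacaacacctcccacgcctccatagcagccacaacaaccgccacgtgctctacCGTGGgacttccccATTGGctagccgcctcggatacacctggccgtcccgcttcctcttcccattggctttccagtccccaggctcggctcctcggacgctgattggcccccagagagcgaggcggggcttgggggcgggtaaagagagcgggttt
Syvn1: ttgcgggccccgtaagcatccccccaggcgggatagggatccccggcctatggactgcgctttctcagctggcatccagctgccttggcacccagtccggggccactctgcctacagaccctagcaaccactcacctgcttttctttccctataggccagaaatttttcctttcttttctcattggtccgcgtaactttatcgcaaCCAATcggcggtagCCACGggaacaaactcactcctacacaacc
Herpud1: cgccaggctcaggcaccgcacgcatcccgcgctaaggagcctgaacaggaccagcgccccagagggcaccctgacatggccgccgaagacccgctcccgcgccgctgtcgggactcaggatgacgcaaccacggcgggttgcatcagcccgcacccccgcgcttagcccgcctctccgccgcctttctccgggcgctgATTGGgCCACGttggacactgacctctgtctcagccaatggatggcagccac
Edem1: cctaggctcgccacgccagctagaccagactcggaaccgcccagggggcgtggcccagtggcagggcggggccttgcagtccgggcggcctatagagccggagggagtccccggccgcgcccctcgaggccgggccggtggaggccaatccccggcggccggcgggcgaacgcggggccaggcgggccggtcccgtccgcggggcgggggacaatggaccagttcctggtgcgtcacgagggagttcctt
The match in Derl3 lies on the opposite strand, at -156 to -138 from the start. Those in Syvn1, at -44 to -26, and in Herpud1, at -52 to -42, read in the direction of the gene. A match is a description of letters, and binding was not measured.

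All values are log2 processed signals relative to the 75th percentile of the same array, so that 0 is the level of that percentile, and each change is the circHIPK3 siRNA mean less the siGFP mean, with its standard error (SE) from a limma fit over all 25762 genes. The array percentiles lay between 2939 and 3669 signal units. The share of probes with signals well above background was 77.6% to 79.7% on the siGFP arrays and 80.7% to 83.4% on the circHIPK3 siRNA arrays. The part of this difference in the results was not tested. By their scan identifiers, all siGFP arrays were scanned with replicate 1 of circHIPK3 siRNA, whereas its replicates 2 and 3 shared another scan. Arrays with the same scan identifier are taken here to share a slide, which was not read from a slide label. Slide and group are thus partly confounded. In the fit, 301 genes or 1.17% passed an adjusted p of 0.05, with 165 lower (0.64%) and 136 higher (0.528%). Without 1 of the other 5 arrays the count was between 0 and 43, and without circHIPK3 siRNA replicate 1 it was 1745, with 317 lower and 1428 higher. The split depended on the scaling: it was 202 lower and 42 higher with quantile normalization, 399 and 200 with the array median as scale, 249 and 47 with normexp background correction, and 151 and 34 in the authors' value table. All genes together had a median change of 0.08, and scaling to the array median shifted it by -0.10, so changes relative to that median are given beside the main ones. All 12 beta cell markers, such as the insulin genes Ins1 and Ins2 and the factor Pdx1, were well above background on every array. Of 6 markers of other islet cells 4 were too, among them the glucagon gene Gcg. The log2 of the summed signal of that list ran from 4.01 to 4.90 in siGFP and from 3.45 to 4.36 in circHIPK3 siRNA, and its part in the results was not tested. Of the 5 acinar and ductal markers 4, and of the 7 immune, endothelial and fibroblast markers 5, were well above background on all arrays, and Cdh5 and Pdgfra, of endothelial cells and fibroblasts, on none. The summed log2 signal of the first list was -2.69 to -2.33 in siGFP and -2.35 to -2.29 in circHIPK3 siRNA, and that of the second 0.25 to 0.45 and 0.22 to 0.70, and their part was not tested either.

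Of the derlins, Derl3 fell, and Derl1 and Derl2 did not pass the test. Derl3, the family member most closely tied to ER stress and abundant in secretory tissues, had log2 signals of 0.57, -0.19 and 0.65 on the siGFP arrays and -0.97, -1.29 and -1.12 on the circHIPK3 siRNA arrays. The groups did not overlap, and the gap between the lowest siGFP array, replicate 2, and the highest circHIPK3 siRNA array, replicate 1, was 0.78. Derl3 fell by 1.47 ± 0.23 (SE), to 36.1% of the siGFP level or 2.77-fold lower, with a limma adjusted p of 0.0428. It was the fourth lowest of the 143 called lower genes that had a symbol. It was the only member called, 1 of 10 genes where 1.17% of all genes were called, and 1 of 13 probes where 1.32% of all kept probes were called (0.743% lower). As this contrast was known when the genes were chosen, nothing is read from those shares. Its probe was well above background on all 6 arrays.

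Derl2, which acts in the removal of both glycosylated and other clients, is read by 3 probes. The brightest gave 2.54, 2.35 and 2.63 in siGFP and 2.19, 2.25 and 2.27 in circHIPK3 siRNA, a change of -0.27 ± 0.11 (SE, limma adjusted p = 0.209). The second probe gave 1.07, 0.80 and 0.77 against 0.64, 0.61 and 0.65, a change of -0.25 ± 0.11 (SE). The third gave 0.62, 0.48 and 0.44 against 0.16, 0.00026 and 0.34, a change of -0.35 ± 0.12 (SE). For each of the 3 probes every circHIPK3 siRNA array lay below every siGFP array, although none of them passed the threshold (adjusted p from 0.171 to 0.254 in the fit over all 31362 kept probes). The probes read the same samples and are not replicates of the comparison.

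Derl1, which recruits the p97 ATPase to the ER membrane, lay on the other side. Its brighter probe gave 2.34, 2.14 and 2.27 in siGFP and 2.52, 2.45 and 2.57 in circHIPK3 siRNA, a change of 0.27 ± 0.10 (SE, limma adjusted p = 0.194). The groups did not overlap, with a gap of 0.12. The second Derl1 probe gave 1.67, 1.58 and 1.48 against 1.72, 1.77 and 1.51, which overlapped, and a change of 0.09 ± 0.11 (SE). Relative to the median of all genes these changes were 0.18 and 0.0043. With the array median as scale the second probe turned to -0.01, while the first stayed above 0 at 0.16. The size of a difference for Derl1 therefore rests on the probe.

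**Figure D1:**
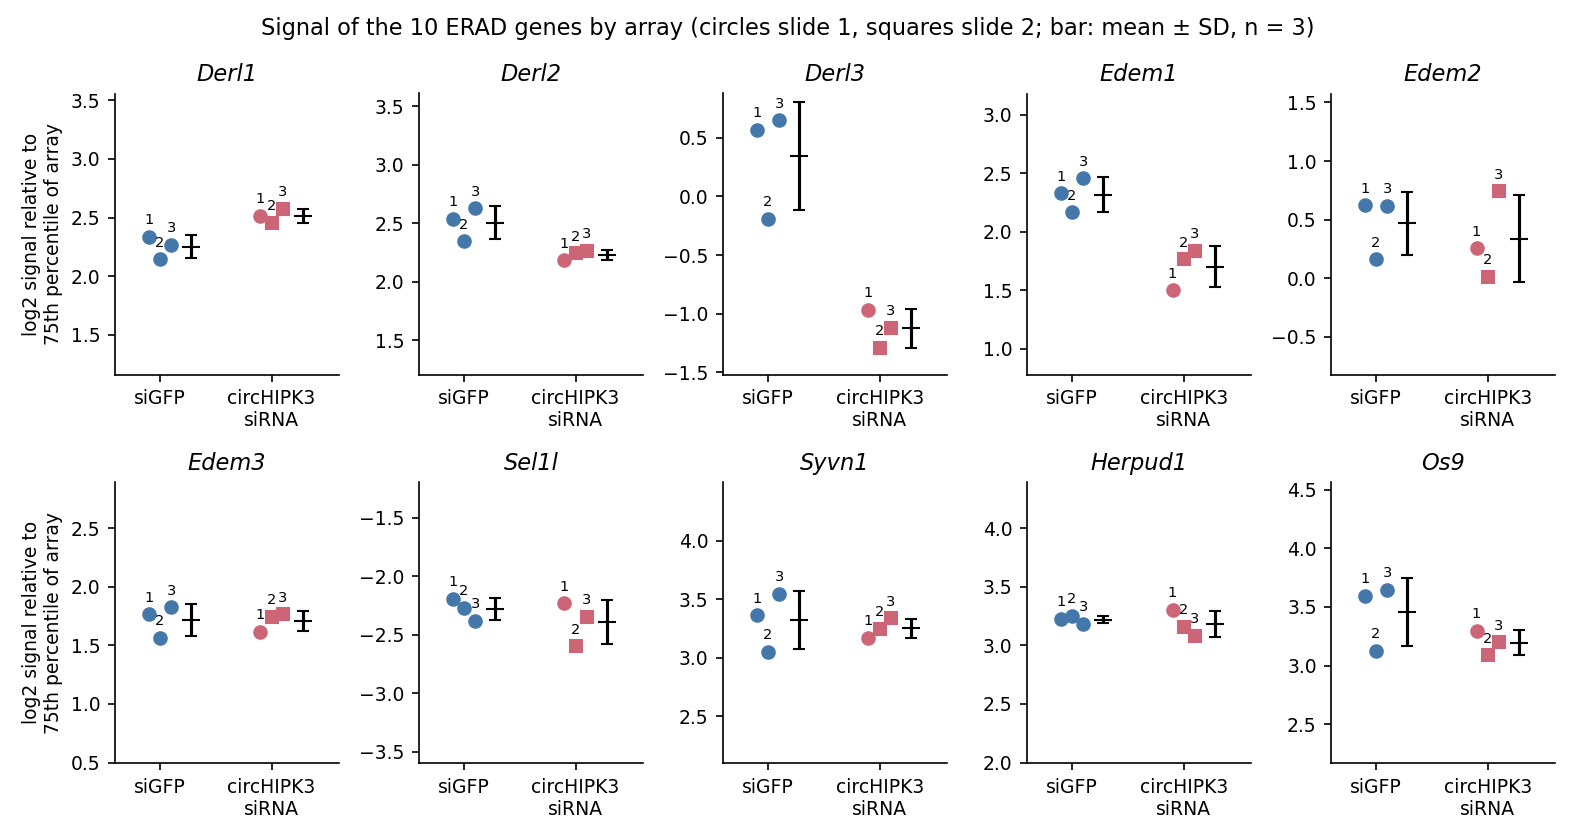
Log2 signal relative to the 75th percentile of the array (y axis, each panel with the same span) for the 10 genes in siGFP (blue) and circHIPK3 siRNA (red) arrays, numbered by replicate, with circles for the first slide, squares for the second, and the mean ± SD of n = 3 in black. The groups are apart for Derl1, Derl2, Derl3 and Edem1, with the widest gap, 0.78, for Derl3, and overlap for the other 6 genes.

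The EDEM genes differed among themselves as well. Edem1, an ER protein induced by XBP1 that speeds the release of misfolded glycoproteins from the calnexin cycle, had signals of 2.33, 2.17 and 2.46 in siGFP and 1.50, 1.77 and 1.84 in circHIPK3 siRNA. The groups did not overlap, with a gap of 0.33. Its change was -0.61 ± 0.13 (SE), to 65.3% of the siGFP level, and missed the threshold at a limma adjusted p of 0.0677. Edem2, which makes the first mannose cut, gave 0.62, 0.16 and 0.62 in siGFP and 0.25, 0.01 and 0.74 in circHIPK3 siRNA. Its lowest and highest arrays were both from the circHIPK3 siRNA group, and the change was -0.13 ± 0.21 (SE, limma adjusted p = 0.743). Edem3, which trims further mannoses, gave 1.77, 1.56 and 1.82 against 1.61, 1.74 and 1.77, a change of -0.01 ± 0.11 (SE, limma adjusted p = 0.966). The circHIPK3 siRNA arrays for Edem3 lay inside the siGFP range.

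At the ligase complex none of the 4 genes passed, and the groups overlapped for each. Syvn1, the ubiquitin ligase HRD1 itself, gave 3.36, 3.05 and 3.55 in siGFP and 3.17, 3.25 and 3.34 in circHIPK3 siRNA, a change of -0.07 ± 0.14 (SE, limma adjusted p = 0.797). Sel1l, its adaptor, gave -2.19, -2.27 and -2.38 against -2.23, -2.60 and -2.35, a change of -0.11 ± 0.12 (SE, limma adjusted p = 0.624). Herpud1 gave 3.22, 3.25 and 3.18 against 3.31, 3.16 and 3.08, a change of -0.04 ± 0.10 (SE, limma adjusted p = 0.852). The siGFP arrays agreed closely for Herpud1, with an SD of 0.03 against 0.11 in the circHIPK3 siRNA arrays.

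Os9 was printed on 10 spots of each array, and the spots of a single array had an SD of 0.04 to 0.07, which covers spot noise only. The array means were 3.60, 3.13 and 3.65 in siGFP and 3.30, 3.09 and 3.20 in circHIPK3 siRNA. The SD between the 3 arrays was 0.29 in siGFP and 0.11 in circHIPK3 siRNA. Among the siGFP arrays replicate 2 lay well below the others, and the change was -0.26 ± 0.16 (SE, limma adjusted p = 0.360).

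SiGFP replicate 2 was the lowest siGFP array for 8 of the 10 genes, all except Sel1l and Herpud1. Over all genes the same array was the lowest of the 3 for 50.0%. Without it the change of Derl3 was -1.74 and that of Edem1 -0.69, both larger, and neither passed (limma adjusted p = 0.0748 and 0.130). The call of Derl3 was also lost without siGFP replicate 1 (-1.36, adjusted p = 0.111), without siGFP replicate 3 (-1.32, adjusted p = 0.164), and without circHIPK3 siRNA replicate 2 (-1.39, adjusted p = 0.113) or replicate 3 (-1.48, adjusted p = 0.116), all by limma. It was kept without circHIPK3 siRNA replicate 1 (-1.55, limma adjusted p = 0.0325). In that setting 1745 of 26410 genes were called, the groups lie on separate slides, and a difference between slides cannot be told apart from the treatment. Within the first slide alone, where circHIPK3 siRNA replicate 1 is compared with the siGFP mean, the changes were -1.31 for Derl3, -0.81 for Edem1, -0.32 for Derl2 and 0.27 for Derl1. No gene of the array passed in that setting, with limma adjusted p of 0.286 for Derl3 and 0.210 for Edem1 and 2870 of 25759 genes at an unadjusted p under 0.05. With slide as a block, the adjusted p was 0.231 for Derl3 and 0.168 for Edem1, and again 0 genes passed by limma, with 2676 at an unadjusted p under 0.05. The arrays of the second slide stood at -1.55 from the siGFP mean for Derl3 and at -0.51 for Edem1.

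Across the group, 9 of the 10 genes had a change below 0, and the median change was -0.12, or -0.21 relative to the median of all genes. Over all genes 9255 of 25762 lay below 0. The difference moves with signal level: 9 of the 10 genes lie at or above the median signal of all genes, where the median change was 0.0048, against 0.21 below it, and its part was not tested. The groups did not overlap for 4 of the 10 genes, 3 lower and 1 higher. Over all genes 25.9% did not overlap, as 9.39% were wholly lower and 16.5% wholly higher. Relative to the median of all genes the changes were -1.56 for Derl3, -0.70 for Edem1 and -0.36 for Derl2. These 3 lay below that median under each of the 16 other settings tried, but the settings are not separate checks. Median scaling, trend and robust variance, and replicate number as a block leave these relative changes as they were by construction. Slide as a block and the first slide alone make the same comparison by construction, since the second slide holds circHIPK3 siRNA arrays only. Quantile normalization and the authors' value table gave nearly the same values. Edem1 passed with the array median as scale (-0.72, limma adjusted p = 0.0294), with normexp (-0.63, adjusted p = 0.0432) and with trend and robust variance (adjusted p = 0.0211), and its adjusted p ran from 0.0211 to 0.238 over all settings.

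**Figure D2:**
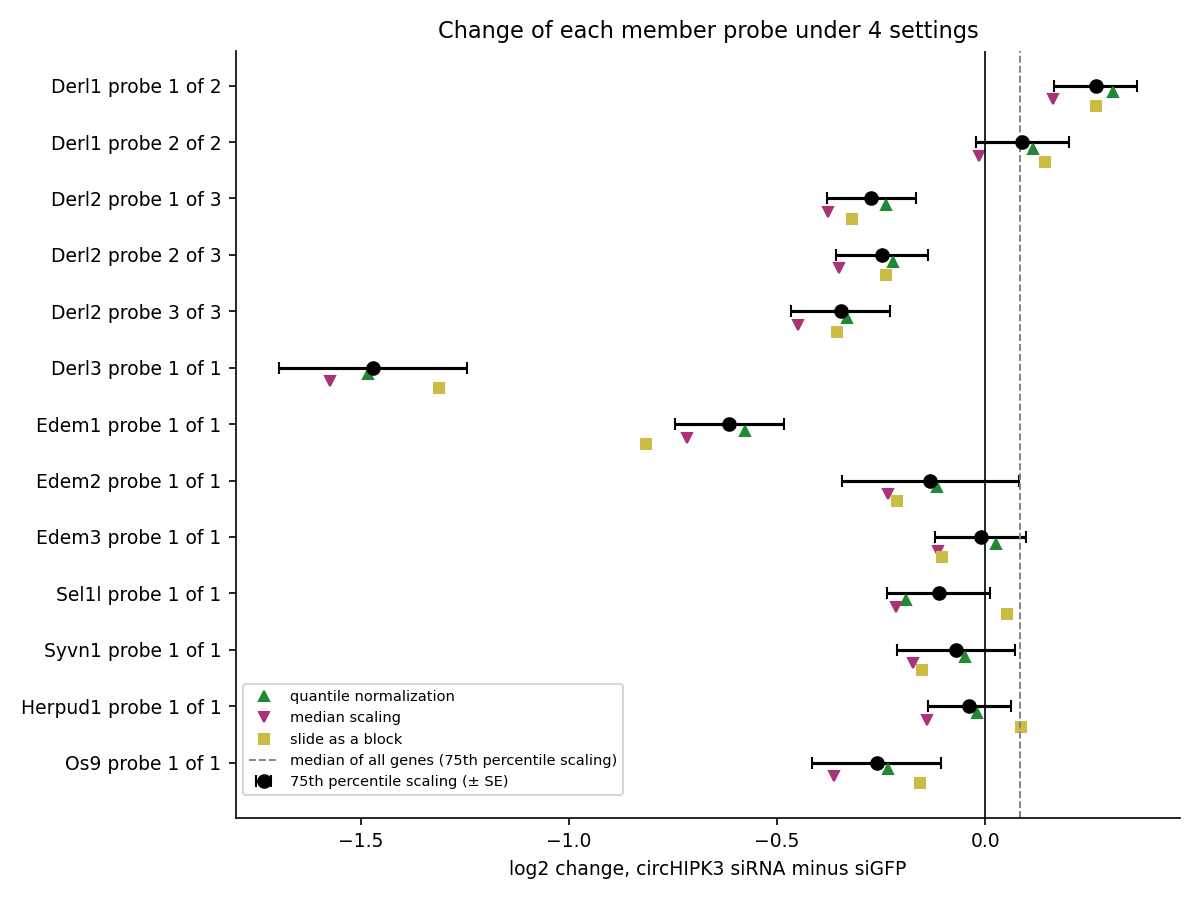
Log2 change (x axis) of each of the 13 member probes with the 75th percentile scaling (black, ± SE), quantile normalization, median scaling and slide as a block, the dashed line being the median change of all genes, 0.08. The single probes of Derl3 and Edem1 and all 3 probes of Derl2 lie left of 0 in the 4 settings, whereas Herpud1, Sel1l, Edem3 and the second Derl1 probe change sign between them.

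Further genes of the pathway were taken from lists by role, 94 genes in all, and 2 of them passed, both lower, against 1.17% of all genes called. Both belong to extraction and cytosolic handling, where 2 of 30 genes fell and 28 did not pass (list median 0.0018). Ubxn8, a membrane-bound adaptor of the p97 ATPase, had signals of -1.27, -1.27 and -1.38 in siGFP and -1.87, -1.96 and -1.91 in circHIPK3 siRNA and fell by 0.60 ± 0.09 (SE, limma adjusted p = 0.0428). Stub1, the chaperone-associated ubiquitin ligase CHIP, had 3.52, 3.42 and 3.57 against 2.96, 2.96 and 2.96 and fell by 0.54 ± 0.09 (SE, limma adjusted p = 0.0492). The groups were apart for both, and the gap was 0.49 for Ubxn8 and 0.46 for Stub1. Each call was lost without siGFP replicate 1, 2 or 3 or without circHIPK3 siRNA replicate 2 or 3, with changes of -0.64 to -0.58 for Ubxn8 and -0.59 to -0.51 for Stub1, and it was lost with slide as a block (-0.56 and -0.54, limma adjusted p = 0.221 and 0.236).

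In the glycan cycle and lectin list none of 14 genes passed, 2 had an unadjusted p under 0.05, where 5434 of all 25762 genes did, and the median was -0.11. The smallest p-values were those of Uggt2, a glucosyltransferase paralog (0.51 ± 0.16, SE, limma adjusted p = 0.144), and of Erlec1, a lectin related to OS9 (-0.35 ± 0.11, SE, limma adjusted p = 0.146). A second Uggt2 probe gave 0.59 ± 0.15 (SE), and the third was well above background on only 1 of the 3 siGFP arrays, with groups that overlapped. Uggt2 passed when circHIPK3 siRNA replicate 1 was left out (0.65, limma adjusted p = 0.0473), where the groups lie on separate slides and 1745 of 26410 genes were called. Among 30 membrane ligases, ubiquitin-conjugating enzymes and adaptors none passed, 7 had an unadjusted p under 0.05, a share near that of all genes, and the median of 0.08 was close to that of all genes. Tmem129, a membrane ubiquitin ligase, was at -0.36 ± 0.10 (SE, limma adjusted p = 0.107). Sel1l2, a paralog of Sel1l, was well above background on no siGFP array and passed the filter only through the circHIPK3 siRNA group. Its limma adjusted p, the smallest of that list at 0.0614, ran from 0.0546 to 0.806 over the alternatives, with the highest under normexp, and no fold can be given. Of 20 ER stress sensors and chaperones none passed, 3 had an unadjusted p under 0.05, against the same 5434 of 25762, and the median was -0.09. Creld2, a secreted ER stress protein, stood at -0.61 ± 0.16 (SE, limma adjusted p = 0.103), with 3.82, 3.52 and 3.94 in siGFP and 2.98, 3.05 and 3.40 in circHIPK3 siRNA, and it passed with the array median as scale (-0.72, limma adjusted p = 0.0367). Dnajc3, an ER co-chaperone, stood at -0.38 ± 0.14 (SE, limma adjusted p = 0.201). The lowest change of that list was that of Sdf2l1, -0.69 ± 0.27 (SE, limma adjusted p = 0.208), with groups that overlapped.

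**Figure D3:**
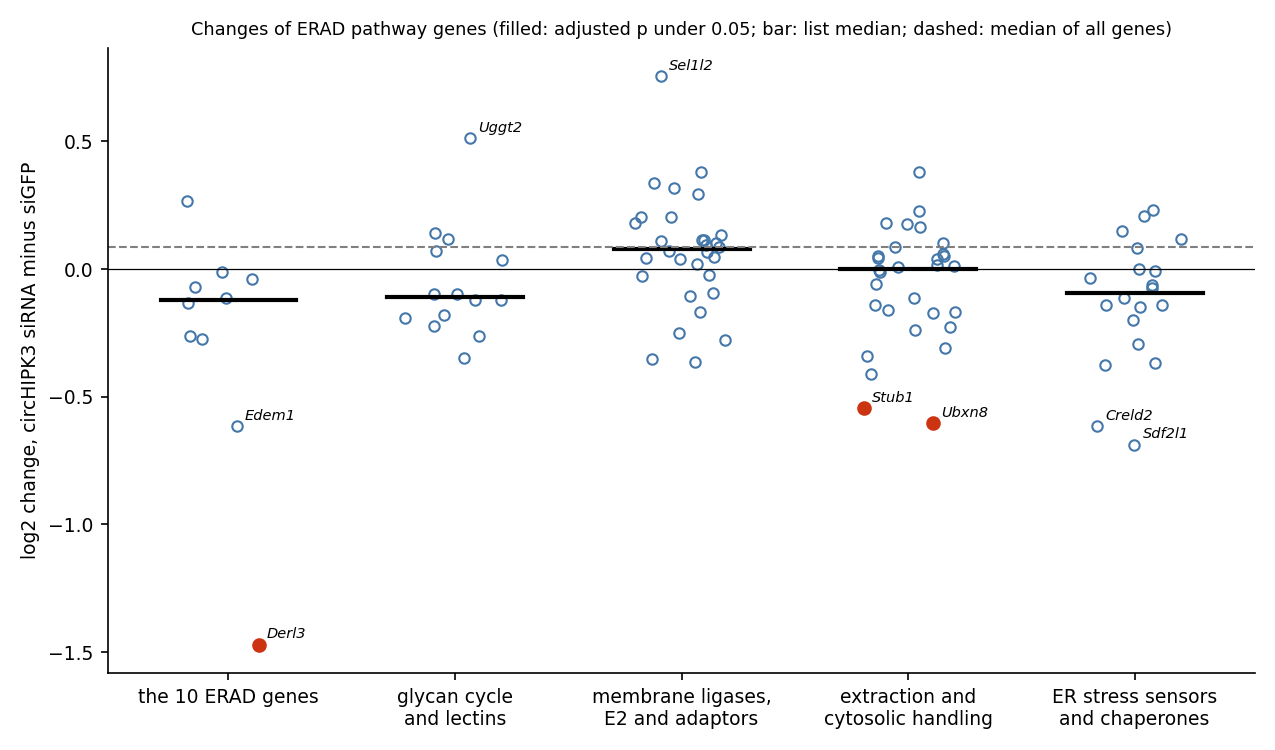
Log2 change (y axis) of the 10 ERAD genes and of the 4 pathway lists, each point a gene, filled where the adjusted p is under 0.05, with list medians as bars and the median of all genes, 0.08, dashed. The 3 filled points are Derl3, Ubxn8 and Stub1, and Derl3 lies furthest from 0.

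The promoter element could be set beside the values of its carriers. In the pathway lists an ERSE was present in 7 of the 76 genes with a window, the calnexin cycle genes Calr and Canx, the chaperone genes Hspa5, Hsp90b1, Dnajc3 and Pdia6, and Creld2, and an ERSE-II in Dnajb11, another co-chaperone. A UPRE was present in 3 of the 76, Txndc11, Ube2j1 and Vcp. The ERSE sites of 4 of these carriers are shown for comparison with those of Derl3 and Syvn1, 5′ to 3′ on the strand of the gene, with the fixed letters in capitals, from the same RefSeq windows.
Creld2: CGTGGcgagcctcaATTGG
Dnajc3: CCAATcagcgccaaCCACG
Hspa5: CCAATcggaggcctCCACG
Canx: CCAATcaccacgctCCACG
The site of Creld2, like that of Derl3, runs on the opposite strand, and the others shown read with the gene. Among the carriers not shown, the site of Calr (-162 to -144) and that of Hsp90b1 at -107 to -89 also run on the opposite strand. The other Hsp90b1 site and that of Pdia6 read with the gene. The changes of the ERSE carriers covered a wide range. Derl3 was lowest, Creld2 and Dnajc3 followed at -0.61 and -0.38, and Canx, Pdia6, Calr, Hspa5, Syvn1 and Hsp90b1 lay between -0.12 and -0.06 with none called. Hspa5, which encodes the chaperone BiP and is a standard readout of ER stress, stood at -0.07 ± 0.10 (SE). Over the 20 tested genes with an ERSE, 1 was called, Derl3, whose change was known before the search, where 1.17% of all genes were called. The median change of the 20 was -0.07, with 15 below 0. The 5 above 0, none of them called, were Zfp57 at 0.11, Pan2 at 0.14, Olfr59 at 0.41, Ptgdr2 at 0.45 and Spats2l at 0.75. Of all genes, 9255 of 25762 lay below 0, with a median of 0.08. The change moves with signal level, with a median of 0.0048 at or above the median signal of all genes and 0.21 below it. These 5 carriers all had siGFP means below 0, as had Acacb and Alg12 among the 15. The part of signal level in the carriers' changes was not tested. Xbp1 and Atf6, which encode the factors that act through such elements, stood at -0.14 ± 0.10 and 0.12 ± 0.13 (SE), and neither passed. The Atf6 paralog Atf6b stood lower, at -0.37 ± 0.17 (SE, limma adjusted p = 0.275). These arrays read RNA levels, not the splicing of Xbp1 or the cleavage of ATF6.

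**Figure D4:**
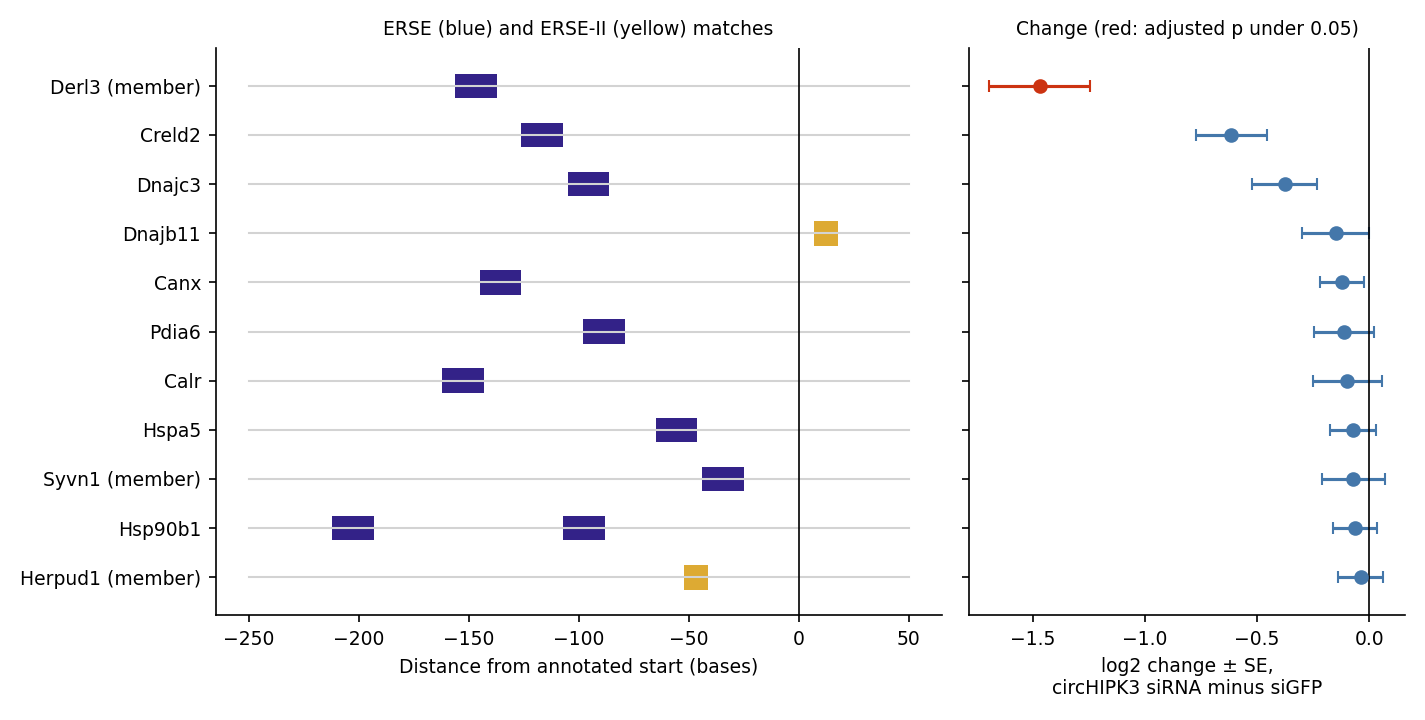
Left, position of ERSE (blue) and ERSE-II (yellow) matches as distance in bases from the annotated start (x axis) in 3 members and 8 other pathway genes; right, their log2 change ± SE, red where the adjusted p is under 0.05. Derl3 is at -1.47, Creld2 at -0.61, Dnajc3 at -0.38, and the other 8 genes lie between -0.15 and -0.04.

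The genes whose values followed those of Derl3 most closely over the 6 arrays, among 16510 genes well above background on all of them, were Tbcb, Palld, Car12, Slc25a25 and Gm10845, with Pearson r of 0.999, 0.998, 0.995, 0.995 and 0.994. All 5 were lower in the circHIPK3 siRNA arrays and low in siGFP replicate 2, as Derl3 was, which follows from how they were picked. Their changes were smaller, from -0.16 for Gm10845 to -0.77 for Car12. Of the 5 only Car12 passed (limma adjusted p = 0.0492). With 6 points that share arrays and groups, such values are a description only. Among the members, Derl2 had the highest r with Derl3, 0.946, and Derl1 the lowest, -0.701. Over all the genes searched, Derl2 ranked only at place 255.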

How the data were processed

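Single-colour Agilent arrays measured RNA in 6 samples. The authors' scanner files hold background-subtracted and raw median intensity per spot, per the file headers. The software was Agilent Feature Extraction 11.0.1.1, per the submitters' processing notes, and the annotation names another genome build (mm9) than that of the promoter table. The authors' deposited value table gives log2 values for these arrays (column medians 9.7965 to 9.7968, correlation with the log2 processed signal at least 0.9999). It was not centred by gene, and its normalization is not given in the sources used here. The members' changes in it were nearly those under quantile normalization (for Derl3 -1.4817 and -1.4818), so they are not separate checks.

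Flagged spots were dropped (12 probes then lacked a value on an array, none of them a member), spots of a probe were averaged as log2, and each array's 75th percentile was subtracted. A probe was kept when, in either group, each of its spots on the 3 arrays was well above background, leaving 31362 of 39429. Symbols came from matching transcript accessions to RefSeq (GRCm38.p6), which named 27228 probes. The brightest probe stood for a gene. limma 3.58.1 in R 4.3.3 (lmFit, eBayes, group as the only term) tested 25762 genes across the array with Benjamini-Hochberg adjustment, and the procedure was tested on simulated data. Genes named are all members and, per pathway list, called genes or the 2 smallest p-values, and the 5 genes most correlated with Derl3. Other genes fall outside this rule and were chosen after their values were seen. They are those named for a promoter element, as its factors (Xbp1, Atf6) or their paralog (Atf6b), for the lowest change (Sdf2l1) or as markers. The members and lists were chosen with earlier results of these data known. Figures used matplotlib 3.10.9 in Python 3.11.15. Alternatives were quantile normalization, median scaling, the value table, normexp with an offset of 50, other probe filters, trend and robust variance, slide and replicate number as blocks, the first slide alone, every member probe, and each array left out.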

Additional observations from a re-analysis of the deposited data

How the results depend on the processing

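The count of called members was 1 (Derl3) and that of the other pathway genes 2 (Ubxn8 and Stub1). Members called were 2 (Derl3 and Edem1) with median scaling, normexp and trend and robust variance. No member and no other pathway gene was called (0 and 0) without a filter on dim probes, with slide as a block, in the first slide alone, or with the replicate number as a block. The limma fit with no filter called 0 of 32451 genes, with 5631 at an unadjusted p under 0.05, and more genes were tested there. Leaving out an array gave 0 to 1 called members and 0 to 3 other pathway genes. The replicate block, where Derl3 kept -1.47 and had an adjusted p of 0.0856, left 0 of all genes called by limma (5126 at an unadjusted p under 0.05). Same-numbered arrays correlated at -0.02, 0.27 and -0.13 in their deviations from the group mean, and different-numbered ones at -0.35 to 0.29. With so few arrays these values cannot decide whether arrays were paired by number, and the labels do not say. Over the alternatives and left-out arrays Derl3 lay between -1.74 and -1.31 and Edem1 between -0.81 and -0.51, and Edem2, Edem3, Sel1l, Syvn1 and Herpud1 changed sign in at least 1 setting. All 13 member probes were well above background on all 6 arrays and no spot was saturated. Whether their signals were proportional to RNA was not tested.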
